A study of Gallus gallus and Dromaius novaehollandiae with 40 samples.

Results

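The forelimb and hindlimb buds of the chick (Gallus gallus) were compared by RNA sequencing at Hamburger and Hamilton stage HH18, an early limb bud stage in the standard series for this embryo. The comparison rests on 8 libraries, 4 of forelimb somatopleure and 4 of hindlimb somatopleure, numbered 1 to 4 in each limb. They are 8 of the 40 libraries labelled in the series, which sets chick tissues beside those of the emu. The labels give neither a strain nor a treatment for these embryos. They do not say whether the libraries of a limb came from separate embryos or from pools, so the p-values speak only of the spread among these libraries, and that spread may be technical. The 4 flank somatopleure libraries of the same stage, from the body wall between the limbs, enter the same fit and serve as a reference tissue that forms no limb.

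The wing and the leg grow from the same kind of outgrowth of the somatopleure, the outer layer of the lateral plate with its overlying ectoderm. Which limb forms is known to depend on transcription factors restricted to either bud. TBX5 acts in the forelimb field, and PITX1 and TBX4 act in the hindlimb field. Hox genes, which lie in clusters and are switched on in domains along the body axis, help to place the fields. None of these genes can be read by name in this table: it lists 21542 numbered identifiers, the deposited table pairs none with a name, and 0 matched the RefSeq gene table of assembly GRCg7b. The results below are therefore given by identifier for 4 genes, 2 higher in each limb, and by place or count for the others. For the same reason the tissue labels could not be set against marker genes, and the share of ectoderm, blood or other cells in the buds was not tested. In bulk tissue, fewer cells of a type and less RNA per cell cannot be told apart.

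Depth ran from 15047434 to 31779990 counts in the forelimb libraries, from 13616330 to 25590901 in the hindlimb libraries and from 16286812 to 74373484 in the flank libraries. The 10 most abundant genes held 4.10% to 4.34% of a forelimb library and 4.25% to 4.39% of a hindlimb library. In the flank they held 5.56% of library 1 and 4.22% to 4.51% of the others. Of the 21542 identifiers, 18370 had a count in at least 1 limb library and 13768 passed the filter on low counts in the fit over the 12 libraries.

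The limb was not the largest source of variation among the 8 libraries. On the first principal component of log2 CPM (counts relative to library size), with 40.5% of the variance, the libraries numbered 1 and 2 of both limbs lay between -38.7 and -29.9, and those numbered 3 and 4 lay between 29.6 and 39.4. The second component (29.1%) separated the limbs, with the forelimb libraries between 26.6 and 31.98 and the hindlimb libraries between -34.8 and -25.9. The next component (12.8%) set number 1 (24.8 in the forelimb, 29.1 in the hindlimb) apart from number 2 (-24.1 and -26.4). The labels do not say what the numbers stand for. Libraries with the same number deviated together from the means of their limbs. The correlation over genes was 0.73, 0.75, 0.66 and 0.69 for numbers 1 to 4, against -0.61 to 0.44 between different numbers. The main counts are therefore also given with the number as a block. Values of single genes come from the fit without the block unless stated. That fit leaves the variation between numbers in its spread. The BCV, the common coefficient of variation between libraries, was 0.225 there and 0.0854 with the block. A gene that did not pass there may thus pass with the block. The 4 genes named by identifier below passed with the block as well (edgeR adjusted p from 8.41e-08 to 7.64e-06).

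**Figure D1:**
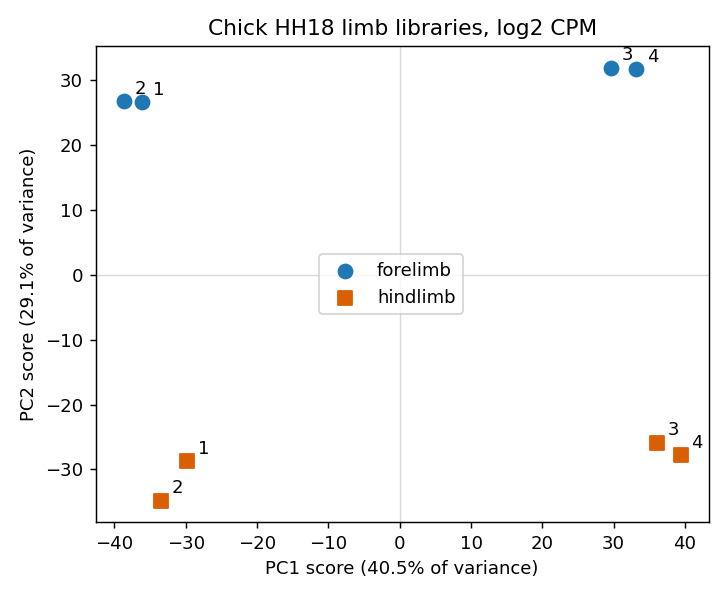
Principal components of log2 CPM over the 8 limb libraries (blue circles, forelimb; orange squares, hindlimb; the digit is the library number). The horizontal axis holds 40.5% of the variance and separates numbers 1 and 2 from 3 and 4; the vertical axis holds 29.1% and separates the limbs.

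Which genes set the forelimb bud apart from the hindlimb bud? Of 13768 genes tested, 820 (5.96%) differed at an adjusted p under 0.05 in the fit without the block. The test was the two-sided quasi-likelihood test of edgeR, with p-values adjusted by Benjamini-Hochberg over the 13768 genes. The 820 comprised 540 genes (3.92%) higher and 280 genes (2.03%) lower in the forelimb. Blocking on the library number raised these counts to 2149 (15.6%), 1278 (9.28%) and 871 (6.33%), and all 820 genes were among those 2149. The 1329 genes added by the block had a median absolute log2 fold change of 0.38. It was 1.13 for the 540 genes higher in the forelimb and 1.04 for the 280 lower there. These folds come from the fit without the block, which the 1329 genes did not pass, and that choice favours smaller folds. The median log2 fold change over all tested genes was -0.01.

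In either direction, the genes that differed in the fit without the block had a lower mean level over both limbs than tested genes as a whole. Their median limb level was 10.2 CPM for those higher in the forelimb and 14.9 CPM for those higher in the hindlimb, against 26.7 CPM over all tested genes. The 1329 genes added by the block had a median of 28.9 CPM, and all 2149 blocked calls had a median of 21.1 CPM. With the tested genes divided by limb level into 3 equal classes, 8.30% of the lowest (0.0461 to 9.69 CPM), 5.43% of the middle and 4.14% of the highest class (54.2 to 11041 CPM) were called. The limb level is a mean over both limbs, which a near-absent limb lowers. The filter also lets in genes with counts in a single tissue. These differences in level may thus be partly set by the measure and the filter. Of the 540 genes, 524 had no overlap between the CPM of the 4 forelimb and the 4 hindlimb libraries, and of the 280 genes, 276 had none. Among all tested genes, 865 (6.28%) had every forelimb library above every hindlimb library and 573 (4.16%) had every forelimb library below. The calls rest on the same values, so the lack of overlap among called genes adds no support to them.

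More genes were higher in the forelimb, while the largest fitted folds were more often those of genes higher in the hindlimb. At least 2-fold, 460 genes (3.34% of those tested) were called, 311 (2.26%) higher in the forelimb and 149 (1.08%) higher in the hindlimb. At least 4-fold the numbers were 108 and 54, at least 8-fold 30 and 18, and at least 16-fold 12 and 10. Past 64-fold there were 2 genes higher in the forelimb and 7 higher in the hindlimb. Folds of that size rest on a limb with few or no counts and on the fitted value, so they order the genes but do not measure them. Whether the 2 directions differ in size was not tested.

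**Figure D2:**
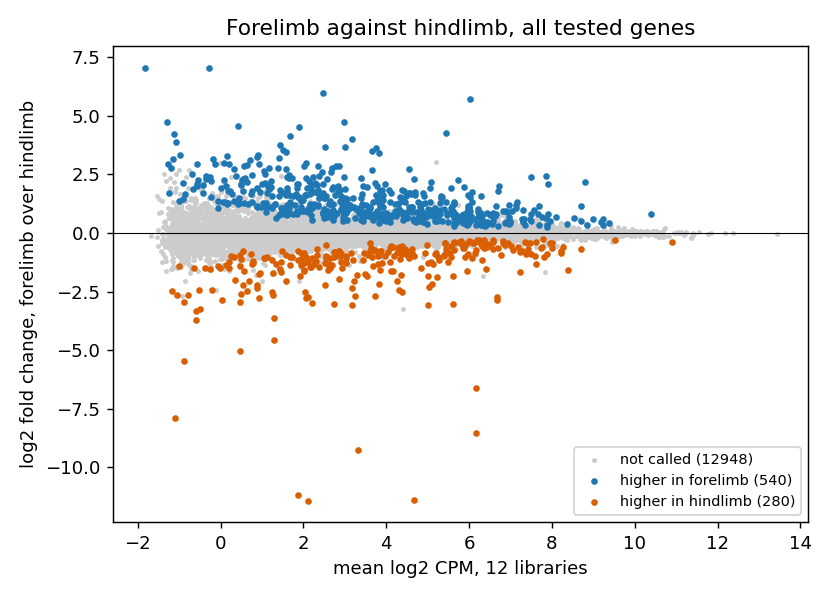
Log2 fold change of forelimb over hindlimb (vertical axis) against the mean log2 CPM of the 12 libraries (horizontal axis) for the 13768 tested genes, with 540 called higher in the forelimb in blue and 280 called higher in the hindlimb in orange. The lowest points, near -11, have few or no counts in the forelimb, so their depth on this axis is a fitted value.

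Among the genes whose limbs did not overlap, gene798 had the largest fold in favour of the forelimb at a mean log2 CPM of at least 1. Its level was 12.4, 16.2, 10.1 and 10.9 CPM in forelimb libraries 1 to 4, against 0.0389, 0.185, 0.395 and 0.152 CPM in hindlimb libraries 1 to 4. The hindlimb values come from 1, 4, 9 and 2 counts, so they are close to absence at this depth. The log2 fold change was 5.97 (SE 0.46, adjusted p = 6.40e-06, edgeR). In the flank gene798 stood between the limbs, at 5.38, 4.46, 2.08 and 3.28 CPM, and the flank libraries overlapped neither limb. Against the flank the forelimb was higher (1.71 on the log2 scale, SE 0.34, adjusted p = 0.00218) and the hindlimb lower (-4.26, SE 0.46, adjusted p = 1.79e-05), both from the same edgeR fit.

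The most abundant gene at least 2-fold higher in the forelimb was gene517. It was read at 487, 571, 556 and 469 CPM in the forelimb libraries and at 205, 245, 257 and 224 CPM in the hindlimb libraries (log2 fold change 1.16, SE 0.11, adjusted p = 3.31e-05, edgeR). The flank libraries, at 592, 479, 480 and 427 CPM, overlapped the forelimb and not the hindlimb. The forelimb did not pass the test against the flank (0.07, SE 0.11, adjusted p = 0.662), while the hindlimb was lower than the flank (-1.09, SE 0.11, adjusted p = 1.18e-05). For this gene the hindlimb bud was the tissue that stood apart.

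In the other direction gene21202 had no count in any forelimb library and none in any flank library. It was read at 16.2, 9.97, 11.4 and 14.3 CPM in hindlimb libraries 1 to 4, from 416, 216, 261 and 188 counts. Set against a floor of 3 counts per library, the hindlimb level of 12.98 ± 2.80 CPM (SD, n = 4) was at least 93.7-fold above the forelimb (adjusted p = 3.22e-05, edgeR) and at least 107-fold above the flank. Transcripts of this gene were thus detected in the hindlimb bud alone among these 3 tissues. It passed the filter through its hindlimb counts alone and was picked for the size of its fold. The adjusted p rests on those same values, so it adds no separate support.

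The most abundant gene at least 2-fold higher in the hindlimb was gene6498. Its level was 161, 162, 192 and 195 CPM in the forelimb libraries and 374, 529, 654 and 576 CPM in the hindlimb libraries (log2 fold change -1.59, SE 0.16, adjusted p = 5.93e-05, edgeR). The flank libraries lay between the limbs without overlap, at 237, 292, 300 and 351 CPM. Against the flank the forelimb was lower (-0.73, SE 0.16, adjusted p = 0.00389) and the hindlimb higher (0.85, SE 0.16, adjusted p = 0.00114).

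**Figure D3:**
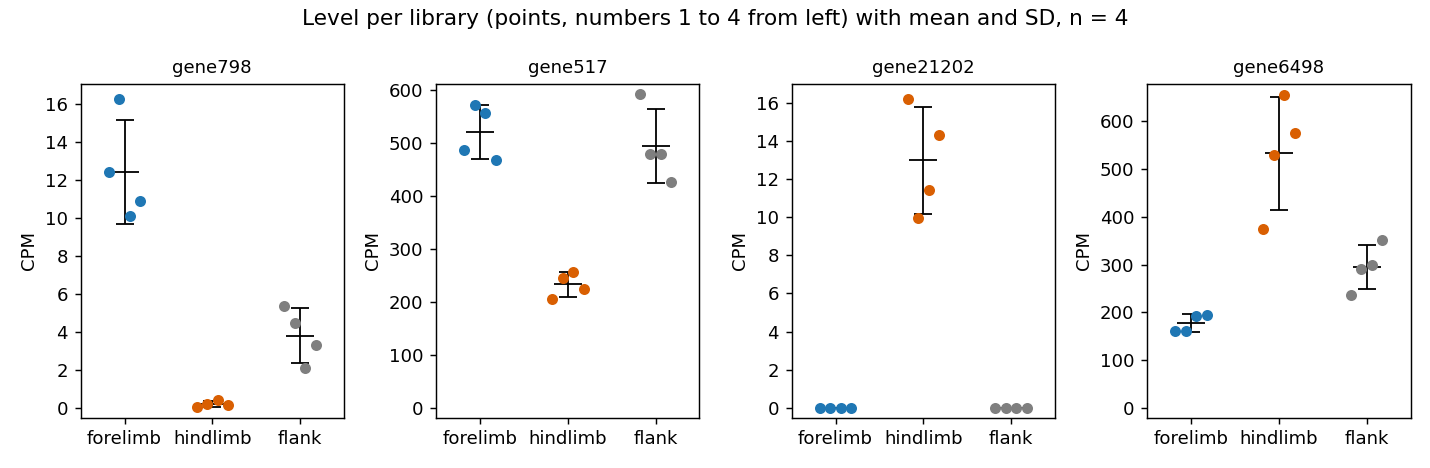
CPM per library for gene798, gene517, gene21202 and gene6498 in forelimb, hindlimb and flank (4 points per tissue, numbers 1 to 4 from left to right; bar, mean; whiskers, SD). For gene517 the flank overlaps the forelimb, gene21202 is at 0 in forelimb and flank, and the flank lies between the limbs for gene798 and gene6498.

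A small set of genes came close to being on in a single limb. With a mean of at least 10 CPM in the higher limb and under 1 CPM in the other, limits chosen after the values were seen, there were 4 such genes for the forelimb and 5 for the hindlimb, including gene798 and gene21202. In the 4 forelimb genes the forelimb mean was 10.6 to 14.9 CPM and the hindlimb mean 0.193 to 0.918 CPM. All 4 were also present in the flank, at means of 3.801 to 12.4 CPM, and in 1 of them the flank mean (12.4 CPM) was above that of the forelimb (10.6 CPM).

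Of the 5 hindlimb genes, 3 had hindlimb means above those of the 4 forelimb genes in the forelimb, at 29.1 to 206 CPM. The most abundant was read at 0.806, 0.343, 0.544 and 0.476 CPM in forelimb libraries 1 to 4, against 190, 161, 231 and 241 CPM in hindlimb libraries 1 to 4 (log2 fold change -8.52, adjusted p = 2.10e-08, edgeR), and its flank mean was 10.8 CPM. Another had 0.136 CPM in forelimb 3 and no count in the other forelimb libraries, against 83.2, 75.5, 59.9 and 62.6 CPM in hindlimb libraries 1 to 4, with a flank mean of 6.44 CPM. A further gene averaged 0.0444 CPM in the forelimb, 29.1 CPM in the hindlimb and 0.576 CPM in the flank. The remaining gene beside gene21202 had no count in forelimb or flank and 13.1, 9.74, 9.996 and 10.7 CPM in hindlimb libraries 1 to 4. So 3 of the 5 hindlimb genes had a flank mean under 1 CPM, and 0 of the 4 forelimb genes did. These numbers are too small for more than a description.

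The flank gives another tissue against which each limb difference can be placed. Its levels were not compared in choosing these genes, though the flank libraries entered the filter and the estimate of the spread; the 8 limb libraries alone gave 752 genes, 697 of them among the 820. Limb and flank differed far more than the limbs did from each other: 4146 genes (30.1%) differed between forelimb and flank, 2018 (14.7%) higher and 2128 (15.5%) lower in the forelimb. Between hindlimb and flank 4933 (35.8%) differed, 2369 (17.2%) higher and 2564 (18.6%) lower in the hindlimb. Both of these contrasts share the flank libraries, so their counts are set side by side and no overlap is tested.

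Among the 311 genes at least 2-fold higher in the forelimb, the most frequent pattern was a hindlimb below the flank. For 133 of them (42.8%) the hindlimb was below the flank while the forelimb did not pass the test against it. For 66 (21.2%) the forelimb was above the flank and the hindlimb did not pass. In 35 (11.3%) the forelimb was above and the hindlimb below the flank. Both limbs were below the flank for 44 genes (14.1%), both above it for 24 (7.72%), and neither limb passed for 9 (2.89%). Choosing genes by a forelimb level above the hindlimb favours calls of a hindlimb below or a forelimb above the flank. Whatever the other limb, the hindlimb was below the flank for 18.6% of all tested genes and the forelimb above it for 14.7%. The shares of the joint patterns over all tested genes are not given here, so these counts are a description. The median log2 fold change against the flank was 0.41 for the forelimb and -1.22 for the hindlimb. The same limb libraries chose these genes by a forelimb level above the hindlimb, so these medians had to lie apart in this order. Over all tested genes both medians were within 0.01 of 0 (-0.00493 for the forelimb and -0.00278 for the hindlimb).

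For 36 of the 149 genes at least 2-fold higher in the hindlimb (24.2%) the forelimb was below the flank and the hindlimb did not pass, and for 49 (32.9%) the hindlimb was above the flank and the forelimb did not pass. In 20 (13.4%) the forelimb was below and the hindlimb above the flank. Both limbs were below the flank for 9 genes (6.04%) and above it for 26 (17.4%), and neither passed for 9 (6.04%). The choice of genes favours calls of a forelimb below or a hindlimb above the flank. Whatever the other limb, these calls were made for 15.5% and 17.2% of all tested genes. The median log2 fold change against the flank was -0.61 for the forelimb and 1.01 for the hindlimb. Here too the choice of the genes by the limb libraries set these medians apart. A limb that did not pass is not shown to equal the flank, and over all tested genes the hindlimb passed against the flank more often than the forelimb.

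Under the block on library number, these shares changed. The block called 7709 genes (56.0%) between forelimb and flank and 8205 (59.6%) between hindlimb and flank. At least 2-fold, it called 401 genes (2.91%) higher in the forelimb and 196 (1.42%) higher in the hindlimb. Of the 401, the limbs lay on opposite sides of the flank for 79 (19.7%), both lay below it for 96 (23.9%), the forelimb alone was above it for 62 (15.5%) and the hindlimb alone was below it for 118 (29.4%). The last was still the most frequent pattern, with a smaller share than without the block. Of the 196, the limbs lay on opposite sides for 35 (17.9%), the forelimb alone was below the flank for 47 (24.0%) and the hindlimb alone was above it for 53 (27.0%). The choice of genes by the limb levels favours these patterns here too. Without the block, 30.1% of all tested genes were called between forelimb and flank and 35.8% between hindlimb and flank. More calls against the flank over all genes leave fewer genes in which only 1 limb passes. The shares of the joint patterns over all tested genes are not given under the block either, so these counts are a description.

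**Figure D4:**
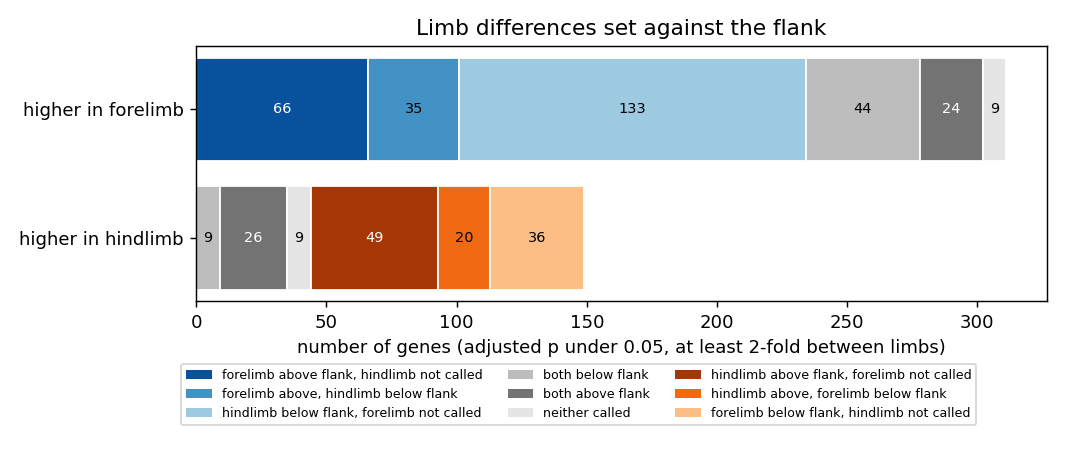
Genes at least 2-fold different between the limbs (311 higher in the forelimb, upper bar; 149 higher in the hindlimb, lower bar), divided by the calls of forelimb against flank and hindlimb against flank. The largest block, 133 genes, holds those whose hindlimb was below the flank while the forelimb was not called against it. Over all tested genes the hindlimb was also called against the flank more often (35.8%) than the forelimb (30.1%).

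The flank can also be placed by its level alone. On a scale where 0 is the hindlimb mean and 1 the forelimb mean of log2 CPM, the flank had a median position of 0.73 for the genes higher in the forelimb and 0.60 for those higher in the hindlimb. Of the 311 genes, the flank was at or above 0.75 (near the forelimb) for 153, between for 83 and at or below 0.25 (near the hindlimb) for 75; with cuts at 0.67 and 0.33, 53 lay between. Of the 149 genes these numbers were 63, 44 and 42. The flank lay beyond the forelimb for 102 of the 311 genes and beyond the hindlimb for 50. For the 149 genes it lay beyond the forelimb for 45 and beyond the hindlimb for 33. Under the block on library number, 401 genes were at least 2-fold higher in the forelimb and 196 in the hindlimb. For the 401 the flank was near the forelimb in 209, between in 96 and near the hindlimb in 96. For the 196 these numbers were 85, 48 and 63. The limb levels that set this scale also chose the genes.

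Genes that differed between the limbs were followed in number by a gene of the same direction more often than tested genes as a whole. The sources used here do not say what the order of the numbers stands for, so this is a description of the table. Of 322 genes higher in the forelimb whose next number was also tested, 50 (15.5%) were followed by another gene higher in the forelimb, whereas 3.39% of all such next genes were. Of 196 genes higher in the hindlimb, 24 (12.2%) were followed by another of their kind, against 1.93% of all. The opposite direction followed 6 of the 322 and 7 of the 196 genes. These are close to the shares over all next genes, 1.93% higher in the hindlimb and 3.39% higher in the forelimb. Under the block on library number the shares were 23.8% against 8.32% for the forelimb and 19.2% against 6.20% for the hindlimb. Whether neighbouring identifiers share reads was not tested.

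Runs of at least 3 consecutive tested genes with the same direction numbered 16, 13 higher in the forelimb and 3 higher in the hindlimb, with 55 genes in all and at most 5 in a run. Under the block there were 57 and 22 such runs, of at most 6 genes. In 2 places a run of one direction stood beside a run of the other, with at most 2 tested genes between them. These stretches were picked after the values were seen. They are described gene by gene below, without their identifiers.

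The first stretch holds 6 tested genes. Those at places 1 to 3 were higher in the hindlimb, increasingly so: the log2 fold change was -0.98 (SE 0.14), -1.85 (SE 0.15) and -4.55 (SE 0.51), with edgeR adjusted p = 6.34e-04, 6.73e-06 and 1.38e-04. The gene at place 3 was read at 0.620, 0.114, 0.136 and 0.238 CPM in forelimb libraries 1 to 4, against 4.71, 5.36, 8.81 and 9.60 CPM in hindlimb libraries 1 to 4, and averaged 0.0372 ± 0.0432 CPM in the flank (SD, n = 4). It was thus nearly absent from both forelimb and flank. From place 4 on the direction turned, with log2 fold changes of 0.85 (SE 0.21), 1.001 (SE 0.12) and 1.84 (SE 0.23). The gene at place 5 was the most abundant of the stretch, at 225, 204, 242 and 275 CPM in the forelimb and 126, 92.6, 120 and 134 CPM in the hindlimb, without overlap, and averaged 217 ± 12.4 CPM in the flank.

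The second stretch holds 11 tested genes and runs the other way. Those at places 1 to 5 were higher in the forelimb, by 0.68 to 1.5 on the log2 scale. The clearest was the gene at place 3, with 58.9, 61.9, 71.1 and 77.02 CPM in the forelimb libraries and 21.3, 24.1, 24.3 and 25.4 CPM in the hindlimb libraries (1.5, SE 0.11, adjusted p = 4.82e-06, edgeR). The genes at places 6 and 7 did not pass, at -0.14 (SE 0.23, adjusted p = 0.992) and 0.13 (SE 0.23, adjusted p = 0.996). The gene at place 7 was abundant in both limbs, at 87.4 ± 10.8 CPM in the forelimb and 80.1 ± 11.8 CPM in the hindlimb, with 12.2 ± 5.45 CPM in the flank (SD, n = 4 each).

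The genes at places 8 to 11 of the second stretch were all higher in the hindlimb and close to absent from the flank. At place 8 the forelimb libraries had 16.3, 6.21, 6.60 and 7.47 CPM and the hindlimb libraries 49.9, 49.4, 53.1 and 59.6 CPM (log2 fold change -2.52, SE 0.31, adjusted p = 2.24e-04, edgeR). At place 9 they had 12.7, 2.25, 3.40 and 2.90 CPM in the forelimb and 35.8, 30.3, 32.97 and 39.2 CPM in the hindlimb (-2.68, SE 0.50, adjusted p = 0.0104), and no count in the flank. At places 10 and 11 the log2 fold changes were -3.04 (SE 0.44) and -2.95 (SE 0.50), with levels of 2.12 ± 1.83 and 0.154 ± 0.0953 CPM in the forelimb against 18.02 ± 3.10 and 1.29 ± 0.238 CPM in the hindlimb (SD, n = 4 each). No flank mean of these genes exceeded 0.0968 CPM, and the forelimb level at place 11 was itself close to that.

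Forelimb 1 was the highest of the forelimb libraries for each of these 4 genes. Without it the log2 fold changes were -2.97, -3.61, -3.87 and -3.47 (edgeR adjusted p = 1.33e-05, 2.15e-05, 1.61e-05 and 0.00400). Leaving out the highest library of the lower limb enlarges such a fold by construction. Genes at least 4-fold higher in the hindlimb and with a count in the forelimb numbered 51, these 4 among them. Forelimb 1 was the highest forelimb library for 15 of the 51, forelimb 2 for 10, forelimb 3 for 21 and forelimb 4 for 5. With or without a count, the 54 genes at least 4-fold higher in the hindlimb had median forelimb levels of 0.438 to 0.646 CPM. The tally thus rests on low levels. The source of the higher values in forelimb 1 was not tested.

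**Figure D5:**
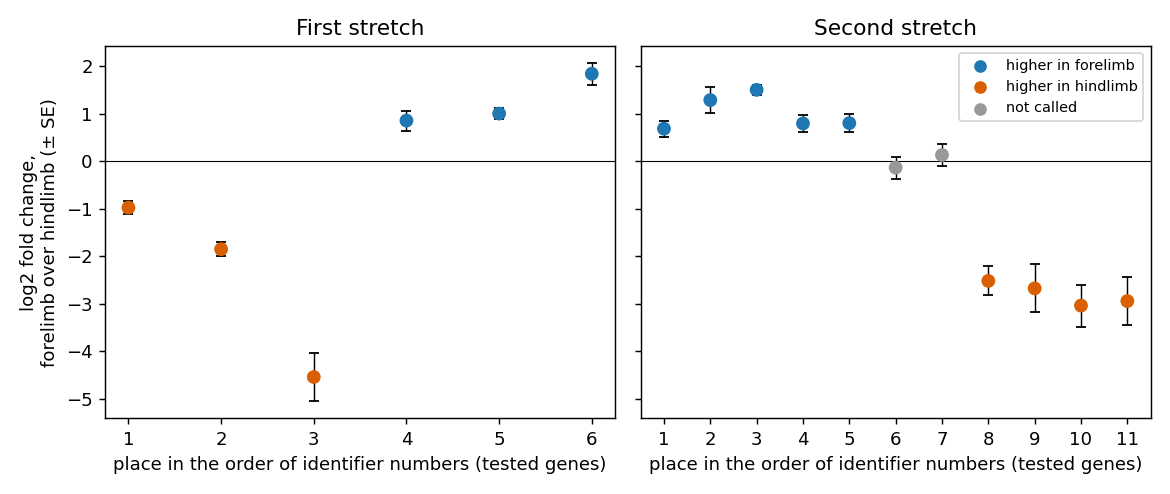
Log2 fold change of forelimb over hindlimb with its SE (vertical axis) for the tested genes of both stretches, in the order of their identifier numbers (horizontal axis). In the first stretch places 1 to 3 are higher in the hindlimb and places 4 to 6 in the forelimb; in the second, places 1 to 5 are higher in the forelimb, 6 and 7 are not called and 8 to 11 are higher in the hindlimb.

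The calls of the smaller forelimb differences in these stretches were lost in several fits with a library left out, while the folds moved little. These fits had no block, so the variation between library numbers stayed in their spread. Leaving out a single library also left its number without a partner in that tissue. At place 4 of the first stretch the edgeR call (adjusted p = 0.0301) was lost without forelimb 1, 2 or 3 or hindlimb 2, 3 or 4 (0.0647 to 0.101). In the second stretch it was lost at place 1 (0.0290) without forelimb 2, 3 or 4 or hindlimb 1, 2 or 4 (0.0596 to 0.101), at place 4 (0.0189) without forelimb 2, 3 or 4 or hindlimb 1 or 4 (0.0512 to 0.0620) and at place 5 (0.0206) without forelimb 1 or 3 or hindlimb 1, 2 or 3 (0.0525 to 0.0705). Under the block all 4 passed (adjusted p = 0.00653, 3.63e-04, 5.56e-06 and 5.29e-04). With each of the 12 libraries left out in turn, the log2 fold changes of these 4 genes ran from 0.71 to 1.004, 0.55 to 0.80, 0.68 to 0.89 and 0.71 to 0.91.

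Since numbers 1 and 2 stood apart from numbers 3 and 4, the limbs were also compared within each set. Numbers 1 and 2 alone gave 151 of 14016 genes tested, 108 higher and 43 lower in the forelimb. Numbers 3 and 4 alone gave 561 of 13704, with 344 higher and 217 lower. An unadjusted edgeR p under 0.05 was met by 1359 and 1779 genes. These fits had no block. On the third component, numbers 1 and 2 lay further apart (24.8 and -24.1 in the forelimb, 29.1 and -26.4 in the hindlimb). Numbers 3 and 4 lay at -7.35 and 4.48 in the forelimb and at -10.8 and 10.3 in the hindlimb. Of the 820 genes, 819 were tested in the first set and 812 in the second, and all of these had the same direction there. They were called again in 142 and 479 cases. The sets are part of the fit that chose the 820 genes, so the shared direction is a description, and whether the limb difference itself differs between the sets was not tested.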

How the data were processed

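RNA was isolated with Trizol and RNeasy micro columns and made into stranded TruSeq libraries from 200 ng of total RNA with 15 cycles of amplification, per the labels' protocols. STAR, featureCounts, DESeq and the assembly galGal4 are listed in the submitters' processing notes without versions or roles. The annotation, the strand setting and the treatment of reads from near-identical or overlapping genes are unstated in the sources used here, and such genes are uncertain. The authors deposited raw read counts by gene. A row without identifier, 0.103% to 0.305% of the counts of a library, was left out. Every replicate pair of a limb differed beyond sampling noise (chi-square over its degrees of freedom of 8.28 or more).

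The 12 chick HH18 libraries were fitted together by edgeR 4.0.16 under R 4.3.3, with TMM factors, a filterByExpr minimum of 10 counts (total 15) and the quasi-likelihood F test. SE values come from the F statistic. CPM values are scaled by TMM; for components and positions log2 CPM has a prior count of 2. Library numbers were taken to pair the libraries because every same-number correlation exceeded 0.1 (lowest 0.569 over the 3 tissues; all 12 libraries correlated best with their own number). Per direction, the gene with the largest fold (mean log2 CPM 1 or more) and the most abundant gene at least 2-fold different were named, from those with no overlap between limbs. Alternatives used DESeq2 1.42.0, limma 3.58.1 and other settings. The code was tested on simulated data. The members and rules were chosen with earlier results of these data known. Floors cover counting error only.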

Additional observations from a re-analysis of the deposited data

Results flagged for a closer look

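Of 91 groups of 4 samples examined, 6 had a sample far from the others by Dixon's criterion. Chance gives such a flag in about 1 of 20 groups. Groups with no count in any sample are among the 91 but cannot be flagged, so the comparison is rough. In the second stretch, forelimb 1 stood at 16.3 CPM at place 8, where the other forelimb libraries had 6.21 to 7.47 CPM, and at 12.7 CPM at place 9, where they had 2.25 to 3.40 CPM. For the hindlimb gene with counts in a single forelimb library, that library (forelimb 3) had 0.136 CPM and the others 0. With the others at 0, any count meets the criterion, so this flag carries no information. The other flags concern the flank: flank 4 had 24.5 CPM at place 2 of the first stretch (others 31.6 to 32.8 CPM), and flank 1 had 11.4 CPM at place 1 (others 15.4 to 16.2 CPM) and 14.4 CPM at place 4 (others 23.2 to 24.5 CPM) of the second stretch.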

How the results depend on the processing

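The count of 820 genes was 655 to 879 with each of the 12 libraries left out in turn (405 to 566 higher and 210 to 313 lower in the forelimb), 815 with RLE size factors, 764 with no filter, 778 with voom, 1133 with DESeq2, 752 with the 8 limb libraries alone and 736 after thinning to the 13616330 counts of the smallest library. The 879 came from the fit without flank 1. The cause of these shifts was not tested. The replicate block gave 2149 (1278 higher, 871 lower), the block on the 8 limb libraries 2364 (1340 and 1024), and the block without 1 number of every tissue 1725, 1234, 1993 and 1513 for numbers 1 to 4 (1014, 777, 1188 and 950 higher; 711, 457, 805 and 563 lower); the BCV was 0.0854 with the block and 0.225 without it. A minimum of 2-fold left 460 (311 and 149). Numbers 1 and 2 gave 151 (108 and 43) and numbers 3 and 4 gave 561 (344 and 217), with fewer libraries by construction; these sets were added after seeing the data. The share of calls higher in the forelimb was 65.9%, and 56.7% with the block on the 8 limb libraries. For the flank, the block gave 79 of 401 and 35 of 196 genes with the limbs on opposite sides (without it, 35 of 311 and 20 of 149), and cuts at 0.33 and 0.67 left 53 intermediate genes higher in the forelimb. Of 728 values of single genes under the alternatives, 0 changed direction and 42 lost their call, all in the stretches and in part from fits on numbers 1 and 2; the 4 genes named by identifier kept their calls under all 26 alternatives. At these depths, levels of a few counts per library limit the folds of the genes nearly absent from a limb.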
